A study of Mus musculus with 4 samples.

Results

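Lipid-associated macrophages were examined in the livers of mice on a methionine/choline-deficient diet (MCD), a food that produces fatty liver with inflammation in mice. They were taken from droplet single-cell RNA libraries as the cells with at least 1 UMI (a counted RNA molecule) of 3 or more of Trem2, Gpnmb, Spp1, Lpl and Cd9 and with at least 0.05% of all UMIs from these 5 genes. The gate held 233 of 2950 cells in MCD replicate 1 and 232 of 3138 cells in MCD replicate 2, together 465 of 6088 MCD cells and of 9609 cells in all 4 libraries. All mice were male wild-type C57BL/6 animals, 8 weeks old, and were kept for 6 weeks on MCD or on control food (NCD), with 2 libraries per diet. Live CD45+ Ly6G- leukocytes with intermediate CD11b had been sorted from liver. The F4/80 level of that sort is low in the series text and high in the sample labels, and whether a library stands for 1 mouse or a pool is not stated. Any batch between the diets cannot be told apart from the diet.

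Lipid-associated macrophages are lipid-laden macrophages of fatty liver and fat tissue. Trem2, a surface receptor for lipids and cell debris, signals through the adaptor Tyrobp and is needed for much of their gene programme. Lpl hydrolyses triglycerides, Gpnmb is a glycoprotein of lysosomes and the cell surface, Spp1 encodes the secreted protein osteopontin, and Cd9 is a tetraspanin of the plasma membrane. In the liver such cells arise largely from recruited monocytes and gather around lipid-laden or dying hepatocytes.

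The 4 libraries held 2699 to 3475 barcodes, and the median cell had 2173 and 2253.5 UMIs in the NCD libraries against 12038 and 12300 in the MCD libraries. The libraries shared 4 to 12 cell barcodes per pair, and none of the shared barcodes was a gated cell. Lymphocytes were used as a check for free RNA. In 43 and 53 B and T cells, at a median of 5112 and 6602 UMIs, each of Trem2, Gpnmb, Spp1 and Lpl was found in at most 2.33% of cells, whereas Cd9 was found in 23.3% and 41.5%. No UMI of Trem2 was found in the 42 and 53 of them thinned to 2000 UMIs. With 3 cells taken as the limit for a count of 0, this allows a share of up to 7.14% and 5.66%.

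The gated cells carried general marks of monocytes and macrophages, as did the remaining Lyz2 cells. Cd68, a lysosomal glycoprotein of phagocytes, was detected in 96.1% and 97.8% of them, Csf1r, the receptor for the macrophage growth factor, in 97.9% and 99.6%, and Ptprc, which encodes CD45, in 99.1% and 99.6%. In the remaining Lyz2 cells these shares were 87.1% and 88.6%, 91.7% and 91.7%, and 97.9% and 97.7%, so they do not set the groups apart. Clec4f and Timd4, which mark resident Kupffer cells, were detected in 0.858% and 1.29% and in 0.429% and 0.431%. The 12 genes of the Kupffer cell list summed to 0.175% and 0.189% of UMIs in gated cells and to 0.151% and 0.162% in the remaining Lyz2 cells. Adgre1, which encodes F4/80, was detected in 61.4% and 66.8% of gated and in 66.9% and 67.8% of the remaining Lyz2 cells. The gate was not uniform. Lyz2, the lysozyme of myeloid cells, was under 0.2% of UMIs in 33 and 19 gated cells. Endothelial genes made up 0.5% or more of the UMIs of 6 and 13 gated cells, and 26 (11.2%) and 45 (19.4%) held UMIs of 3 or more markers of a lymphoid, endothelial, hepatocyte or basophil list and were possible doublets. The remaining Lyz2 cells, which had fewer UMIs, held 4.82% and 10.5% of such cells.

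The gated cells formed 7.90% of MCD replicate 1 (95% exact Clopper-Pearson interval 6.95% to 8.93%) and 7.39% of replicate 2 (6.50% to 8.36%). Intervals cover counting error only. The same gate took 4 of 1735 and 6 of 1786 NCD cells, or 0.231% and 0.336%, but those cells were far shallower. After every cell was thinned to 1000 UMIs, 28 of 2783 (1.01%) and 19 of 2995 (0.634%) MCD cells passed against 1 of 1602 (0.0624%) and 1 of 1689 (0.0592%) NCD cells. Thinning left out 167 and 143 MCD and 133 and 97 NCD cells. Both MCD shares lay above both NCD shares. An exact two-sided permutation p for 2 libraries against 2 cannot fall under 0.33, the value obtained here. It therefore cannot decide on a difference between the diets. With 4 and 6 gated NCD cells, gene levels were not compared between diets.

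The 5 genes did not come together in 1 fixed pattern. Exactly 3 were detected in 130 and 146 gated cells, 4 in 74 and 68, and all 5 in 29 and 18. The most frequent pattern in both libraries was Trem2, Lpl and Cd9 alone, which held 71 cells (30.5%) and 82 cells (35.3%). Just outside the gate, 475 and 626 Lyz2 cells held 2 of the 5 genes, and 91 and 113 cells held 3 or more but stayed under the required sum, at a median of 0.0301% and 0.0325% of UMIs. Inside it the sum ran from 0.0512% to 2.35% in replicate 1 and from 0.0501% to 1.20% in replicate 2.

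Gated cells were compared, within each library, with the 1659 and 1942 remaining MCD cells that had at least 0.2% of their UMIs from Lyz2. UMIs were summed over each group of cells and scaled to the group's total as CPM. Ratios are log2 values with 5 CPM added to both sides, and a gene is called higher or lower where it was at least 2-fold apart in the same direction in both libraries. Because the gate was set on the same counts, these ratios describe the cells and carry no test. The gated cells were also the deeper group, with medians of 16245 and 15851 UMIs against 13313 and 12759.5.

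The 5 gate genes, on mm10 Trem2 (chr17:48346401-48354147), Gpnmb (chr6:49036546-49070929), Spp1 (chr5:104435118-104441050), Lpl (chr8:68880491-68907448) and Cd9 (chr6:125460266-125494791), differed widely in how far they set the gated cells apart. Spp1 stood at 511 and 173 CPM in the gated cells of replicates 1 and 2 against 7.74 and 4.96 CPM in the remaining cells. Gpnmb stood at 219 and 202 against 10.0 and 13 CPM, and Lpl at 943 and 688 against 92.2 and 136 CPM. Cd9 reached 663 and 433 CPM against 71.6 and 81.1 CPM. Trem2 was the least distinct, at 211 and 196 against 83.7 and 71.4 CPM. Spp1 was concentrated in few cells. It was detected in 49.8% and 33.2% of gated cells, and 10 cells held 65.3% and 62.9% of its UMIs. Trem2 was spread over 87.6% and 87.9% of gated cells and was also detected in 45.9% and 39.7% of the remaining cells. At 2000 UMIs per cell these shares were 33.6% and 31.5% against 14.0% and 11.8%. For Cd9 they were 54.7% and 40.9% against 9.85% and 10.3%. The latter lay near the 9.52% of lymphocytes at that depth in replicate 1 and under their 20.8% in replicate 2. Whether Cd9 in lymphocytes and in the remaining cells was free RNA or made by the cells was not tested. When cells were chosen on the other 4 genes, the gene left out stood higher in the chosen cells, with log2 ratios of 4.68 and 3.09 for Spp1, 3.26 and 2.64 for Gpnmb, 2.96 and 2.16 for Cd9, 2.58 and 2.28 for Lpl, and 0.81 and 1.27 for Trem2. Lyz2, the gene that defined the comparison cells, stood at 9301 and 13739 CPM in gated cells against 18329 and 22441 CPM.

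**Figure D1:**
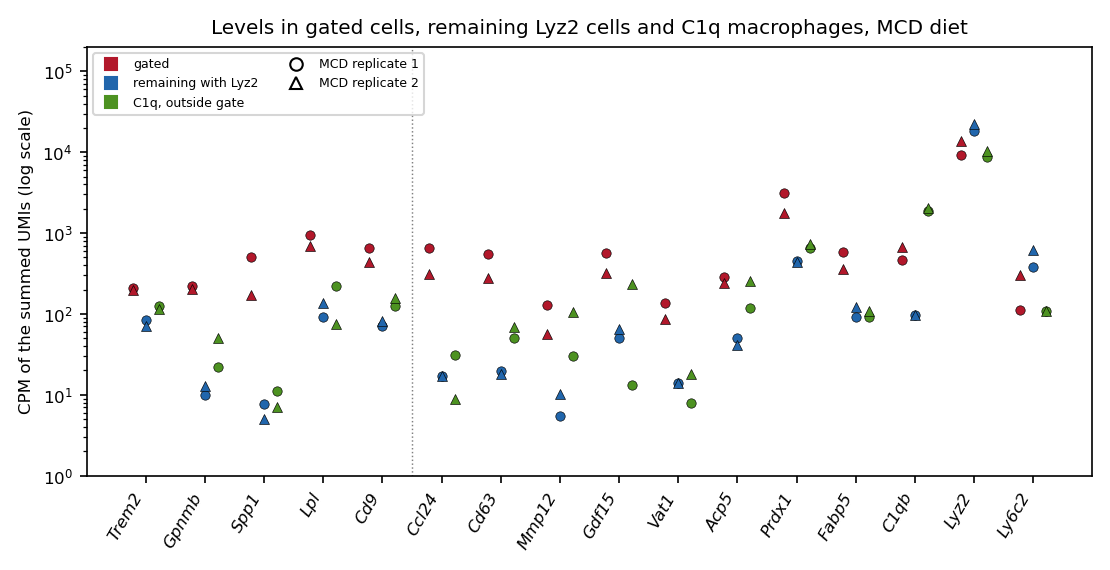
Summed level (CPM, log axis) of the 5 gate genes (left of the dotted line) and of other genes in gated cells, remaining Lyz2 cells and C1q macrophages outside the gate, 1 point per MCD library. Ccl24 stood at 646 and 312 CPM in gated cells and at 17.2 and 17.0 CPM in the remaining cells, while Lyz2 and Ly6c2 were above the gated cells in the remaining cells of each library.

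Of 7011 genes with at least 10 CPM over both groups together in each library, 92 (1.31%) were higher and 19 (0.271%) lower in gated cells, the 5 gate genes among the 92. With TMM scaling in place of group totals the split was 74 higher and 34 lower. At 5000 UMIs per cell 86 of the 92 and 14 of the 19 were still called, and without possible doublets 90 and 19. Across the 7011 genes the ratios of the 2 libraries, which share the gate and the genes but no cells, had a Pearson correlation of 0.853. Replicate 1 alone gave 151 higher and 110 lower genes at 2-fold and replicate 2 alone 109 and 21.

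**Figure D2:**
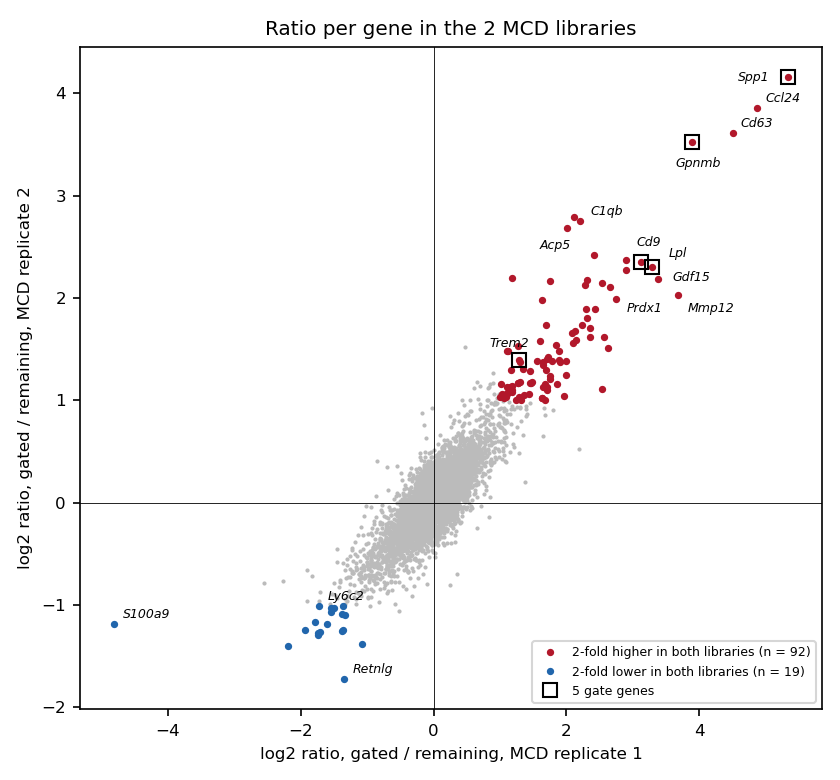
Log2 ratio of gated over remaining Lyz2 cells for 7011 genes, MCD replicate 1 (x axis) against replicate 2 (y axis); red and blue points are genes 2-fold higher (92) or lower (19) in both libraries, squares the 5 gate genes. Ccl24 and Cd63 lie among the gate genes, and S100a9 stands apart on the x axis at -4.81 against -1.19 on the y axis.

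Outside the gate genes the highest ratios belonged to a chemokine and to a tetraspanin of lysosomes and secreted vesicles. Ccl24, an attractant of eosinophils, stood at 646 and 312 CPM in gated cells and at 17.2 and 17.0 CPM in the remaining cells. Its mean log2 ratio was 4.36 ± 0.723 (SD, n = 2 libraries). It was found in 42.1% and 29.3% of gated cells and in 4.94% and 4.22% of the remaining cells, and 10 gated cells held 54.1% and 52.3% of its UMIs. Cd63 stood at 549 and 279 CPM against 19.5 and 18.2 CPM (mean log2 ratio 4.06 ± 0.628) and was found in 54.5% and 41.8% of gated cells. For both genes the gated cells of each library lay above the remaining cells of either library. Gdf15, a stress-induced cytokine of the TGF-beta family, reached 565 and 317 CPM against 50.0 and 65.6 CPM. It was detected in 37.8% and 33.2% of gated cells, and 10 cells held 46.4% and 57.7% of its UMIs in them. Hvcn1, a voltage-gated proton channel, stood at 123 and 59.1 against 12.2 and 7.38 CPM, and Vat1, a vesicle membrane protein, at 136 and 86.8 against 14.0 and 14.0 CPM. Mmp12, the macrophage elastase, stood at 128 and 57.2 against 5.39 and 10.3 CPM, but 10 cells held 84.6% and 84.9% of its UMIs in the gated cells.

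The list of other lipid-associated macrophage genes held 26 names. Of these 23 passed the filter on low values, and 12 were higher (52.2%, beside 1.31% of all genes). None was lower, and the median log2 ratio was 1.04 against 0.02 over all genes compared. Such lists were written from reports on cells of this kind, so the count does not stand on its own as support for the label. Besides Cd63, Mmp12 and Vat1 the called members included Pld3, a lysosomal nuclease (2.20), Fabp5, a fatty acid carrier (2.07), Itgax, the integrin CD11c (1.98), and Cstb, a cysteine protease inhibitor (1.87). Lgals3 and Apoe, the members with the highest levels that were not called, stood at 2283 and 2092 against 2049.8 and 2017 CPM and at 4063 and 5647 against 3083 and 3689 CPM.

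Called genes of lipid handling lay in the list of lipid uptake and storage and in that of cholesterol efflux. In the lipid uptake and storage list 4 of 17 compared genes (23.5%, beside 1.31% of all genes) were higher. The list had a median log2 ratio of 0.30. Fabp5 stood at 589.6 and 357 against 91.1 and 122 CPM, Lipa, the acid lipase that frees fatty acids and cholesterol in lysosomes, at 647 and 414 against 122 and 124 CPM, and Cd36, a scavenger receptor for oxidised lipoprotein, at 252 and 149.7 against 39.3 and 66.4 CPM. Fabp4, a fatty acid carrier related to Fabp5, stood at 47.9 and 118 against 19.6 and 51.6 CPM. It was detected in 15.9% and 25.9% of gated cells, and 10 cells held 72.6% and 72.4% of its UMIs in them. For Fabp5, detected in 60.9% and 59.5% of gated cells, 10 cells held 50.8% and 46.0%. Plin2, the coat protein of lipid droplets, was not called, at 445 and 397 against 329.6 and 321 CPM. For cholesterol efflux 2 of 13 genes were higher (15.4%, median 0.43). These were Nr1h3, the oxysterol-sensing receptor LXR-alpha, at 107 and 112 against 28.1 and 21.0 CPM, and its target Abca1, the cholesterol exporter, at 87.6 and 50.2 against 20.6 and 19.8 CPM. None of 14 cholesterol synthesis genes (median 0.33), 17 glycolysis genes (median 0.34), 11 fatty acid oxidation genes (median 0.01) or 20 oxidative phosphorylation genes (median 0.04) was called. The medians of the last 2 lists were below 0 with TMM scaling, at -0.08 and -0.06.

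Among 29 lysosomal enzymes compared, 4 (13.8%, beside 1.31% of all genes) were higher, with a median log2 ratio of 0.37. Acp5, the tartrate-resistant acid phosphatase, stood at 287 and 244 against 49.9 and 41.6 CPM, with nearly equal log2 ratios of 2.41 and 2.42. Ctsd, the aspartic protease cathepsin D, stood at 1027 and 884 against 316 and 357 CPM, and Acp2, the lysosomal acid phosphatase, at 133 and 95.4 against 55.9 and 42.3 CPM. Lipa was the other called member. Psap, the sphingolipid activator precursor and the most abundant member, was not called, at 5449 and 4734 against 3641 and 3439.7 CPM. In the list of lysosomal membrane and proton pump genes 2 of 24 were higher (8.33%, median 0.29). These were Cd63 and the proton pump subunit Atp6v1c1, the latter at 93.4 and 69.7 against 34.5 and 32.3 CPM. Mitf, a transcription factor of lysosomal and pigment cell genes, stood at 74.7 and 48.3 against 13.7 and 13 CPM. Its relative Tfeb, the master regulator of lysosome biogenesis, was not called, at 61.3 and 59.8 against 46.3 and 46.0 CPM. In the list of 30 macrophage and lysosomal transcription factors compared, 4 (13.3%) were called higher and none lower. These were Nr1h3, Mitf, Egr2 (log2 ratio 1.62) and Pparg (1.31).

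**Figure D3:**
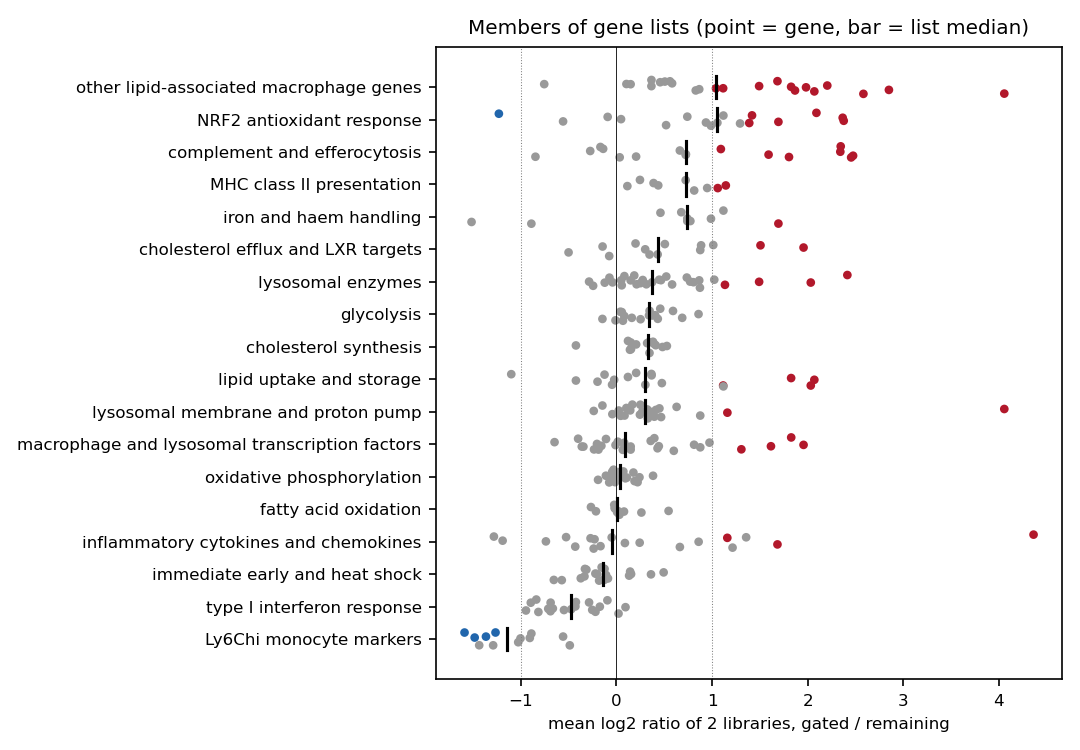
Mean log2 ratio over 2 libraries (x axis) of each compared gene (point) in 18 gene lists, with the list median as a bar; red and blue points were 2-fold higher or lower in both libraries. Medians run from 1.06 for the NRF2 list to -1.15 for Ly6Chi monocyte markers, and the lists of oxidative phosphorylation and fatty acid oxidation lie at 0.04 and 0.01.

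The antioxidant list of the transcription factor NRF2 had a median log2 ratio of 1.06. Of 17 compared genes 6 were higher (35.3%, beside 1.31% of all genes) and 1 lower. Prdx1, a peroxidase that removes hydrogen peroxide, was the most abundant of the called members, at 3087 and 1775 against 456 and 444 CPM. It was detected in most cells of both groups, 99.1% and 98.3% against 90.2% and 89.1%. Per cell its median was 897 and 641 CPM in gated cells and 367 and 338 CPM in the remaining cells, and its upper quartile 3745 and 1345 CPM against 542 and 513 CPM. Srxn1, which restores oxidised peroxiredoxins, stood at 109.8 and 80.3 against 13.3 and 14.8 CPM. Gclm and Gclc, the 2 subunits of the enzyme that limits glutathione synthesis, stood at 202 and 118 against 30.1 and 35.1 CPM and at 148 and 77.6 against 43.9 and 32.7 CPM. Txnrd1, a thioredoxin reductase, and Blvrb, a biliverdin reductase, had log2 ratios of 1.42 and 1.69. The ferritin chains Fth1 and Ftl1 were not called, at 18667 and 13487 against 7123 and 7495 CPM and at 11241 and 9930.1 against 5222 and 5427 CPM. Mgst1, a microsomal glutathione transferase, was the member called lower, at 128 and 164 against 339 and 354 CPM. Nfe2l2, which encodes NRF2, was at 677 and 605 against 598 and 557 CPM.

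NRF2 binds the antioxidant response element, so the 250 bases upstream of the RefSeq start sites (GRCm38.p6) were searched for TGACNNNGC on both strands. It was found in 3 of the 5 called NRF2 genes with a window, Prdx1, Gclm and Txnrd1, and not in those of Srxn1 and Blvrb. These 3 windows are shown because they hold the letters searched for. Each is written 5′ to 3′ along the plus strand, which is the strand of the gene, with the match in capitals, read here as its reverse complement. The match begins 133, 134 and 92 bases before the start site.
Prdx1 (chr4:116685349-116685598): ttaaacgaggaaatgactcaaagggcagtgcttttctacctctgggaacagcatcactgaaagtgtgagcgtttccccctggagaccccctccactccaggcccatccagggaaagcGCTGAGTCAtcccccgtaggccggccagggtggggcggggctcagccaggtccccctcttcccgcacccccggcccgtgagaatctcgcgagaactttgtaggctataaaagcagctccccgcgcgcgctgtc
Gclm (chr3:122245307-122245556): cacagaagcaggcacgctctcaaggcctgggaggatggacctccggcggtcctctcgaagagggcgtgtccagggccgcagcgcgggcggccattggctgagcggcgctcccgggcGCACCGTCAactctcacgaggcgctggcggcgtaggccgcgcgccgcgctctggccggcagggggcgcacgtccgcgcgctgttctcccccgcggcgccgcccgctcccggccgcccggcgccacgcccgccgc
Txnrd1 (chr10:82858956-82859205, 1 of 3 windows of the gene): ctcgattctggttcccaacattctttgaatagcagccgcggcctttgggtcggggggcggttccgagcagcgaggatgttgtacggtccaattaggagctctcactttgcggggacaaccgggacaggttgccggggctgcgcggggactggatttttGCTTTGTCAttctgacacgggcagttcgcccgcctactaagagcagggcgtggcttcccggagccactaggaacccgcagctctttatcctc
The same letters were in 10.2% of all 32851 windows, in 14.4% of the 5475 compared genes with a window and in 16.7% of the 72 genes called higher with one. A match describes the letters and is not a measured binding site.

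Complement and efferocytosis genes, which serve the clearance of dying cells, were the other list with many called members. Of 16 compared 7 were higher (43.8%, beside 1.31% of all genes), with a median log2 ratio of 0.73. The genes of the 3 chains of C1q lie side by side on chromosome 4 (mm10, 136880129 to 136898803). C1qb stood at 462 and 682 against 96.5 and 97.2 CPM, C1qa at 182 and 344 against 41.5 and 49.4 CPM, and C1qc at 159.6 and 279 against 32.9 and 36.0 CPM. The receptor kinases Axl and Mertk, which bind phosphatidylserine on dying cells through bridging proteins, stood at 319 and 258 against 50.7 and 54.6 CPM and at 30.7 and 37.3 against 6.71 and 9.18 CPM. C3ar1, a receptor for a complement fragment, had a log2 ratio of 1.80, and the integrin subunit Itgb5 1.09. The C1q genes stood at higher levels in the gated cells of replicate 2 than in those of replicate 1.

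MHC class II genes, which present antigen to CD4+ T cells, were all above 0 in both libraries for the 9 compared members. Their median was 0.72, and 2 (22.2%, beside 1.31% of all genes) were called higher. H2-Eb1 stood at 3095 and 2848 against 1358 and 1325 CPM and H2-Aa at 4067 and 3651 against 1909.8 and 1785 CPM. Cd74, the invariant chain, was not called, at 8725 and 8348 against 4948 and 4768 CPM. Both calls were lost with TMM scaling, when only gated cells with 0.2% Lyz2 were used, and without the gated cells of most UMIs. The gated cells under that Lyz2 level stood above the other gated cells, with H2-Ab1 at 6299 and 6404 CPM against 2880 and 2838 CPM.

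Secreted factors were called one by one. In the list of inflammatory cytokines and chemokines 3 of 19 (15.8%, beside 1.31% of all genes) were higher, with a median of -0.05. Beside Ccl24 these were Il1rn, the interleukin 1 receptor antagonist, at 433 and 326 against 114 and 114 CPM, and Cxcl16, a chemokine that also binds oxidised lipoprotein, at 280.3 and 224 against 121 and 98.7 CPM. Among matrix and fibrosis factors 4 of 16 were higher (25%, beside 1.31% of all genes) and 1 lower. Mmp14, a membrane-bound collagenase, stood at 181 and 116 against 32.4 and 21.9 CPM, Pdgfb, a growth factor for stellate cells, at 47.5 and 51.4 against 16.7 and 14.6 CPM, and Vegfa, an angiogenic growth factor, at 238 and 194 against 73.0 and 93.0 CPM. Mmp8, the neutrophil collagenase, was lower, at 27.7 and 35.1 against 105 and 93.3 CPM. None of 19 type I interferon genes was called, with a median of -0.47 and 16 of them below 0 in both libraries.

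In the list of TREM and adaptor signalling genes 2 of 11 members (18.2%, beside 1.31% of all genes) were called. Axl and Ms4a7, a membrane protein of tissue macrophages, were higher, at log2 ratios of 2.34 and 1.68. Tyrobp, the adaptor through which Trem2 signals, was not called, at 2154 and 2334 against 3007 and 2869.7 CPM, and the median of the list was -0.18.

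Markers of Ly6Chi monocytes, the inflammatory monocytes from which such macrophages arise, pointed down against the remaining Lyz2 cells. All 12 compared members had ratios below 0 in both libraries, with a median of -1.15, and 4 were called lower, beside 0.271% of all genes. Ly6c2, the antigen that defines these monocytes, stood at 113 and 300.4 against 383 and 609.8 CPM. Gm9733 and F13a1, coagulation factor XIII, had log2 ratios of -1.48 and -1.27. Chil3 and Plac8 were not called, at 772 and 1015 against 1891 and 1677 CPM and at 1261 and 1472 against 2705 and 2419 CPM. Ly6c2 was detected in 42.9% and 59.5% of gated cells and in 67.7% and 73.6% of the remaining cells.

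Further genes called lower were Serpinb10 (-1.80), Retnlg (-1.53), Tppp3 (-1.51), Ifitm6 (-1.48), Pi16 (-1.40), Glipr2 (-1.32) and Pdlim1 (-1.30). S100a9, a calcium-binding protein of neutrophils and monocytes, had the lowest mean ratio, -3.00 ± 2.56 (SD, n = 2 libraries), but 1 cell of the comparison group held 97.7% of its UMIs in replicate 1 and 78.4% in replicate 2. In the neutrophil list 3 of 5 compared genes were lower, beside 0.271% of all genes, with a median of -1.53. In the endothelial list none of 9 was called, and all 9 were above 0 in both libraries, with a median of 0.62 and a summed level of 0.0327% and 0.0661% of UMIs in gated cells against 0.0189% and 0.0436% in the remaining cells. The part of these cells in other results was not tested beyond leaving them out, which kept 89 of the 92 and 19 of the 19 calls. Retnlg was detected in nearly equal shares of gated and remaining cells, 11.6% and 11.6% against 13.3% and 12.9%. Its ratio turned to 1.13 after thinning to 5000 UMIs and to 1.35 against cells with 1% Lyz2, where S100a9 was at 0.37.

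Ccl24, Cd63, Gdf15, Fabp5, Acp5, Ctsd and Prdx1 stood higher with each further gate gene detected in both libraries. For this Lyz2 cells were thinned to 5000 UMIs and sorted by that number into 645 and 674 cells with none, 615 and 780 with 1, 266 and 374 with 2, 84 and 70 with 3, and 37 and 36 with 4 or 5. From none to 4 or 5 genes Cd63 ran through 5.89, 19.8, 92.5, 507 and 1162 CPM in replicate 1 and through 11.3, 12.1, 54.5, 169 and 722 CPM in replicate 2. Ly6c2 went from 411 to 10.8 CPM in replicate 1 and from 620.5 to 172 CPM in replicate 2. The cells left with 2 gate genes after thinning had 175 and 65.2 CPM of Ccl24 against 2.79 and 4.45 CPM in cells with none. At full depth 67 and 83 of these 266 and 374 cells were in the gate, and the 199 and 291 outside it had 113 and 49.5 CPM of Ccl24. The upper steps were mostly gated cells, 77 of 84 and 62 of 70 with 3 genes and 36 of 37 and 36 of 36 with 4 or 5. The 7 and 8 cells with 3 genes outside the gate had no UMI of Cd63 and 28.6 and 25 CPM of Ccl24. In them Ctsd stood at 486 and 475 CPM and Prdx1 at 1029 and 300 CPM. C1qb, which encodes a complement chain, stood at 449 CPM in replicate 1 cells with 4 or 5 genes against 569 CPM in those with 3, and at 1189 against 677 CPM in replicate 2. Between the same groups Nr1h3, H2-Ab1 and Cd74 likewise went down in replicate 1, from 129 to 54.1, from 3293 to 2692 and from 8350.0 to 7200.0 CPM, and up in replicate 2.

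**Figure D4:**
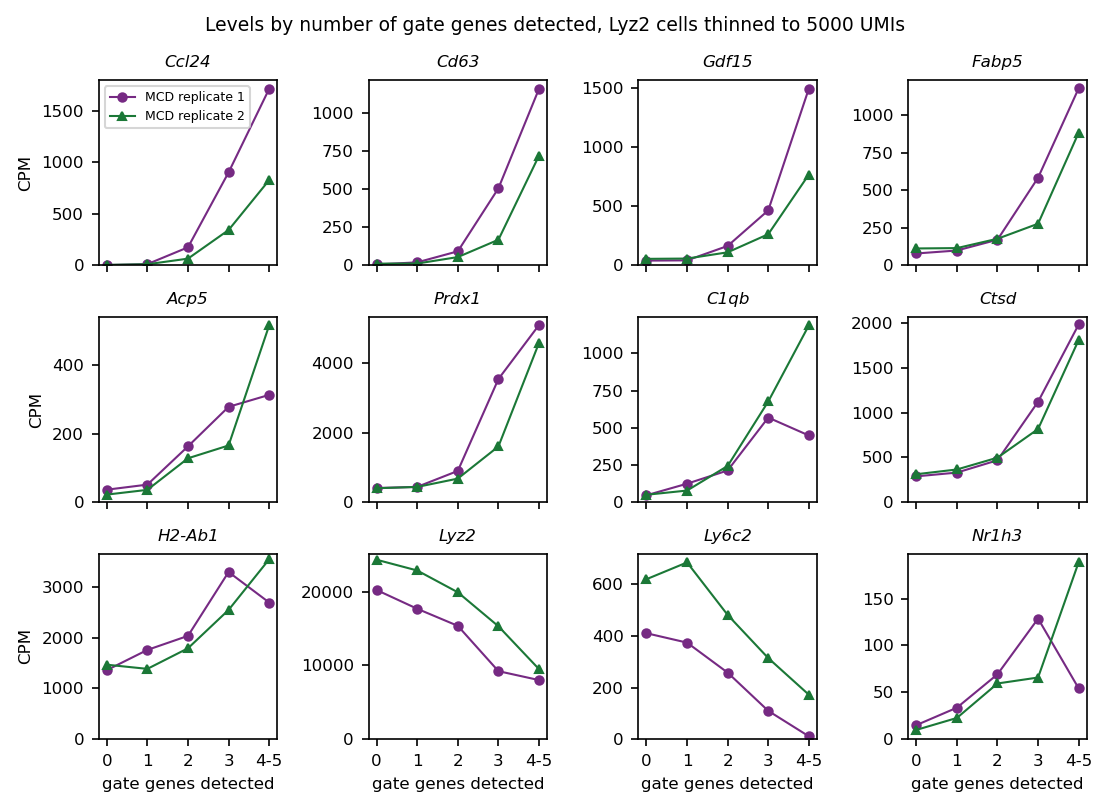
Summed level (CPM) of 12 genes in Lyz2 cells thinned to 5000 UMIs, by the number of gate genes detected, 1 line per MCD library. Cd63 reached 1162 and 722 CPM in cells with 4 or 5 gate genes, while Lyz2 and Ly6c2 were at their lowest there.

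Across single cells genes were ranked by their Spearman correlation with the summed gate score, taking the lower value of the 2 libraries, over 1647 and 1934 cells and 9456 genes. The first 5 were Axl (0.351 and 0.258), Ctsb (0.237 and 0.248), Ccl24 (0.295 and 0.236), Mmp14 (0.336 and 0.223) and Nr1h3 (0.228 and 0.223). Cd63 had the higher value of 0.370 in replicate 1 and 0.195 in replicate 2. At the negative end, ranked by the weaker value of the 2 libraries, stood Ifitm3 (-0.35 and -0.24), Tmsb10 (-0.32 and -0.22) and Ifitm2 (-0.33 and -0.22). The cells of a library share its depth and free RNA, and these values are a description.

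Gated cells with and without a UMI of Cd63 were set side by side, a split chosen after its values were seen. The 127 and 97 cells with Cd63 had the higher levels of several other genes. Fabp5 stood at 944 and 656 CPM in them and at 106 and 100.2 CPM in the 106 and 135 cells without Cd63, and Gdf15 at 937 and 579 against 58.7 and 90.4 CPM. Prdx1 was at 4177 and 2914 against 1601 and 794 CPM. Trem2 was nearly level, at 215 and 198 against 207 and 195 CPM. The cells with Cd63 were deeper, with medians of 17304 and 17637 against 15033 and 14352 UMIs. Whether depth had a part in this split was not tested.

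Gated cells with neither Gpnmb nor Spp1, 71 and 82 in number, were set beside the gated cells with 1 or both of these genes. Cd63 stood at 215 and 139.6 CPM in them against 674 and 339 CPM in the latter 162 and 150 cells, Fabp5 at 147 and 161 against 755 and 441 CPM, and Ly6c2 at 182 and 381 against 86.9 and 266 CPM. Lpl and Trem2, which had admitted them, were at 1053 and 642 and at 219 and 186 CPM. Set alone against the remaining cells they gave 42 higher and 3 lower genes, 32 and 1 of which were among the 92 and 19 above. The cells with neither gene were shallower than the other gated cells, with medians of 14702 and 14191 against 16585.5 and 16997.5 UMIs. The part of depth in these values was not tested.

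C1q genes also divided the gated cells among themselves. Those with at least 0.1% of UMIs from C1qa, C1qb and C1qc were 46 of 233 in replicate 1 and 49 of 232 in replicate 2. Of 7056 genes, 31 (0.439%) were higher and 81 (1.15%) lower in them than in the 187 and 183 C1q-negative gated cells. All 9 compared endothelial markers were among the lower genes, and the 6 and 13 gated cells with endothelial markers at 0.5% of UMIs were all C1q-negative. Without such cells, an alternative added after the values were seen, 37 (0.529%) of 6992 genes were higher and 44 (0.629%) lower, and the values that follow are from that setting. Endothelial genes were not gone from it, since Aqp1, Flt1, Egfl7 and Dnase1l3 were still lower, at log2 ratios of -1.67, -1.66, -1.48 and -1.46. Their part in the other ratios was not tested.

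C1q-positive gated cells had the higher levels of antigen presentation genes and of receptors of tissue macrophages. Cadm1, an adhesion molecule also listed as a dendritic cell marker, stood at 73.8 and 73.1 CPM against 6.93 and 11 CPM. It was detected in 16 and 25 of all gated cells, and 10 cells held 90.1% and 72.6% of its UMIs. Ms4a7 stood at 65.1 and 172 against 16.4 and 25.8 CPM. C3ar1 was at 98.8 and 98.8 against 16.7 and 26.1 CPM, and Mertk at 66.3 and 71.1 against 15.1 and 18.2 CPM. The class II genes H2-Eb1 (5982 and 6121 against 2419 and 1932 CPM) and Cd74 (15756 and 16917 against 7079 and 5937 CPM) were higher, as was Apoe, the lipoprotein of lipid export, at 8349 and 11552 against 3019.8 and 3728 CPM. C1q-negative gated cells had the higher levels of several monocyte genes. Hp, haptoglobin, was lower in the C1q-positive cells, at 86.3 and 99.8 against 512 and 526 CPM, as were Vcan, a matrix proteoglycan of monocytes (10.0 and 9.88 against 48.2 and 90.3 CPM), Chil3, a chitinase-like protein (384 and 201 against 879 and 1290.2 CPM), and Ly6c2 (26.3 and 131 against 139 and 349 CPM). The gate genes were not called in this split. Trem2 stood at 348 and 296 against 180.0 and 170.4 CPM, Spp1 at 731 and 264 against 451 and 152 CPM, and Gpnmb at 230.2 and 324 against 220.0 and 175 CPM. Lpl stood at 579 and 664 against 1066 and 664 CPM, and Cd9 at 534 and 346 against 711 and 466 CPM. Cd63 (415 and 428 against 587 and 247 CPM) and Prdx1 (1581 and 2135 against 3512 and 1707 CPM) did not keep 1 direction across the libraries.

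**Figure D5:**
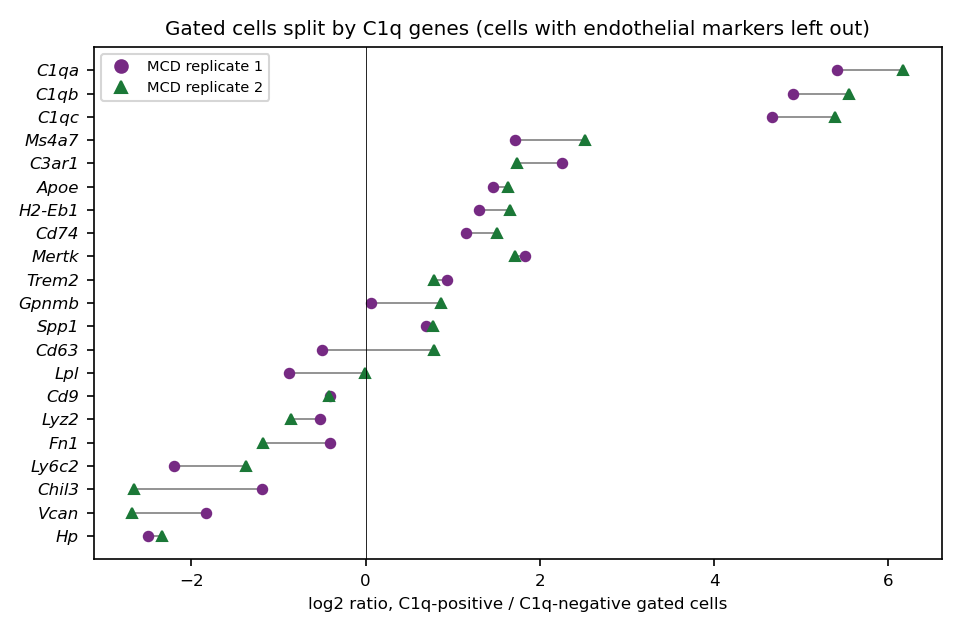
Log2 ratio of C1q-positive over C1q-negative gated cells, cells with endothelial markers left out, for 21 genes in MCD replicates 1 and 2. Ms4a7, Mertk and H2-Eb1 lie above 0 in both libraries, Hp, Vcan and Ly6c2 below 0 in both, and Cd63 on both sides of 0.

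The gated cells were also set against C1q macrophages outside the gate, 67 and 74 macrophages with Lyz2 at 0.2% and C1q genes at 0.1% of UMIs or more. Of 7088 genes, 59 (0.832%) were higher and 17 (0.24%) lower in gated cells. Ccl24 (646 and 312 against 31.3 and 8.98 CPM), Vat1 (136 and 86.8 against 7.82 and 18.0 CPM), Cd63 (549 and 279 against 50.3 and 68.9 CPM) and Cd36 (252 and 149.7 against 39.1 and 31.9 CPM) were higher here too. So were Fn1, the matrix protein fibronectin, at 1226 and 1154 against 329.7 and 261 CPM, Slpi, a protease inhibitor, at 402 and 436 against 52.5 and 97.8 CPM, and F10, coagulation factor X, at 430.5 and 327 against 73.8 and 93.8 CPM. Cxcl3, a neutrophil attractant, was at 76.2 and 16.1 CPM in gated cells, and 1 UMI of it was counted in the C1q macrophages of each library. It was detected in 17 and 16 gated cells, and 10 cells held 95.5% and 91.0% of its UMIs. Trem2 was not called, at 211 and 196 against 126 and 115 CPM, and Axl was at 319 and 258 against 283 and 375 CPM. None of 17 complement and efferocytosis genes was higher here, and 3 were lower (median log2 ratio -0.08). None of 13 cholesterol efflux genes (median -0.02) or 29 transcription factors (median 0.05) was called. Higher were 1 of 30 lysosomal enzymes, 2 of 17 NRF2 genes and 7 of 24 other lipid-associated macrophage genes (3.33%, 11.8% and 29.2%, beside 0.832% of all genes). Markers of Ly6Chi monocytes, which were below 0 against the remaining Lyz2 cells, pointed up here, with a median log2 ratio of 1.01. Of 12 compared 2 (16.7%) were called higher and none lower, with 8 above 0 and 2 below 0 in both libraries.

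Antigen presentation ran the other way in that comparison. Of 10 compared MHC class II genes 4 were lower, beside 0.24% of all genes, and none higher, with a median of -1.09. Cd74 stood at 8725 and 8348 CPM in gated cells against 18665 and 18300.2 CPM in the C1q macrophages. Most gated cells, 187 of 233 and 183 of 232, were C1q-negative. H2-Eb1 stood at 3095 and 2848 CPM in all gated cells and at 5982 and 6121 CPM in the C1q-positive ones. In the C1q macrophages outside the gate it stood at 6834 and 6894 CPM. The interferon-induced genes Cxcl9, a T cell attractant, and Gbp4, a GTPase, were lower, at 63.5 and 28.8 against 302 and 108 CPM and at 12.4 and 11.8 against 57.0 and 43.9 CPM. The C1q genes, which had chosen these macrophages, were lower by that choice. Over 7088 genes the ratios of the 2 libraries had a Pearson correlation of 0.410 in this comparison.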

How the data were processed

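The 4 libraries were sorted mouse liver leukocytes profiled by 10x 3' single-cell RNA sequencing. The authors deposited whole-number UMI counts per gene and cell, made with Cell Ranger 3.0.2 per the file headers and mapped to mm10 per the submitters' processing notes. The deposited barcodes are those called as cells, and no source at hand states the counting settings. MCD replicate 1 listed 27998 genes and the other libraries 694 more, and only shared genes were used.

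A cell needed 200 detected genes and a mitochondrial share of 10% or less, and no doublet caller was run. UMIs were summed over each group of cells in each library and divided by the group's total to give CPM, and levels are compared between groups of cells, not between genes. Ly6c2, the class II genes, Prdx1 and the ferritin chains have near-identical copies among which reads may be split. The gate, the gene lists and the comparisons were chosen with earlier results of these data known. Gated against other cells carries no test, since the gate read the same counts. The genes named are the 5 gate genes and Lyz2, the 12 called genes with the largest and the 12 with the smallest mean ratio in each comparison, in each list the called members farthest from 0 and up to 2 abundant members not called, and the genes most like the gate score. Others, such as Tfeb, Nfe2l2, Tyrobp and the genes of the subset splits, were named after their values were seen.

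The edgeR test of diet within gated cells, with its DESeq2, filter, replicate block, thinning and left-out replicate alternatives, was not run because it needed 20 gated cells in every library. Alternatives changed the gate, the filters, the scaling, the fold, the depth and the comparison cells. Promoter windows came from RefSeq, and gene positions from GENCODE M21, which matched 27722 gene IDs. Software was Python 3.11.15 with numpy 2.4.6, scipy 1.17.1 and pandas 2.3.3, matplotlib 3.10.9, and R 4.3.3 with edgeR 4.0.16 for the TMM factors.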

Additional observations from a re-analysis of the deposited data

How the results depend on the processing

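The comparisons rest on 2 libraries, and the mouse is not known to be the unit of a library. The share of MCD cells in the gate, 7.65% on average, was 4.45% with a sum of 0.1% of UMIs, 3.12% with 4 of 5 genes required and 5.75% after thinning to 5000 UMIs, and 7.39% to 7.90% with 1 replicate left out. The difference in share between diets was 0.759 percentage points at 1000 UMIs per cell, 2.09 at 2000 and 7.36 unthinned. Against the remaining Lyz2 cells, the 92 higher genes became 144 without the filter on low values, 230 at 1.5-fold, 141 against cells with 1% Lyz2 and 42 for gated cells with neither Gpnmb nor Spp1. The 19 lower genes became 40 with 1 CPM added, 34 with TMM scaling, 175 at 1.5-fold, 43 with the mean of each cell's CPM, 61 after thinning to 5000 UMIs, 54 when the gate was set on a random part of the UMIs and genes were read from the rest, 34 against cells with 1% Lyz2, 42 without possible doublets, 31 against cells with at most 1 gate gene, 54 for gated cells with Gpnmb or Spp1 and 3 for those with neither. With 1 replicate left out, these counts ran from 113 to 166 higher and from 22 to 114 lower. Against C1q macrophages outside the gate the 17 lower genes became 10 with C1q genes at 0.05%, and 1 replicate left out gave 211 to 230 higher and 28 to 61 lower genes. In the C1q split the 81 lower genes became 37 with C1q genes at 0.05% and 44 without cells with endothelial markers, and 1 replicate left out gave 69 to 87 higher and 195 to 299 lower genes. A single library needs no second one to repeat a call, so those counts are larger by construction, and for the other changes the cause was not tested. Of 1156 values for 68 named genes under 17 settings, 5 changed sign. Retnlg was 1.13 after thinning to 5000 UMIs and 1.35 against cells with 1% Lyz2, and S100a9 was 0.37 against the latter. Gpnmb at -1.72 and Spp1 at -1.17 for gated cells with neither were set by that choice. No paired analysis was possible because the test of genes between diets, the one with a replicate block, had too few gated NCD cells to be fitted. Gated and remaining cells were compared within each library, and that comparison carries no test.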

Other observations

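The gated cells with less than 0.2% of UMIs from Lyz2, 33 and 19 in number, held a few dividing cells and had the higher levels of Cd74. Top2a, a topoisomerase of dividing cells, stood at 159.6 and 116 CPM in them against 1.40 and 7.04 CPM in the other gated cells, and Mki67, a marker of dividing cells, at 152 and 143 against 3.92 and 14.3 CPM. Top2a was detected in 4 and 2 of these cells and Mki67 in 4 and 3. Cd74 reached 15749 and 15368 CPM against 7665 and 7748 CPM. Spp1 was at 439.7 and 180.1 CPM, and Ly6c2 at 13 and 24.4 CPM. Ccr7, the homing receptor of migratory dendritic cells, was detected in 24.2% and 31.6% of them against 11.6% and 16.4% of all gated cells.

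Other motifs were counted in the same promoter windows, on both strands. The M-box TCACATGA was in 4.17% of the 72 genes called higher with a window, in 0.731% of the 5475 compared genes and in 0.846% of all windows. The E-box CACGTG was in 13.9%, 11.1% and 6.02%, and the CLEAR letters TCACGTGA, which contain that E-box, in 2.78%, 2.28% and 0.785%. None of these letters, nor the antioxidant element, was in the windows of the 4 gate genes that had one.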
